A study of Mus musculus with 8 samples.

Results

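The 10 genes described here are Atf4, the central transcription factor of the amino acid stress response, and 9 genes of the same response: Atf3, Ddit3, Cebpb, Asns, Psat1, Phgdh, Slc7a11, Trib3 and Chac1. They were taken by name, as all non-control probes carrying one of these gene names, which gave 13 probes for 10 of the 30175 gene names on the array. Their mRNA was measured in E14 mouse embryonic stem cells (ESCs), a line derived from the early embryo, grown without feeder cells in serum medium with LIF, non-essential amino acids and β-mercaptoethanol. All cells were infected with lentivirus carrying short hairpin RNAs and were harvested 72 hours later, with 2 biological replicates, A and B, in each of 4 groups: control knockdown (control KD, a hairpin against EGFP), Tip60 KD, Hdac6 KD and double KD of both. Tip60, encoded by Kat5, is the acetyltransferase of the Tip60-p400 chromatin complex, and Hdac6 is a deacetylase. Per the methods, a single hairpin, the most effective of those screened, was used for each gene, so that an effect of the hairpin and of the gene cannot be told apart. The study asked if Tip60-p400 needs Hdac6 to regulate genes in ESCs.

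When amino acids run short, uncharged tRNA activates the kinase Gcn2, which phosphorylates the translation factor eIF2. General translation then slows while translation of the Atf4 mRNA rises, so that the mRNA level of Atf4 does not by itself give the amount of its protein. Atf4 is a basic leucine zipper (bZIP) factor that pairs with C/EBP proteins on a composite element with the consensus TGATGNAA and switches on amino acid synthesis, amino acid transport and genes that later restrain the response. Other stresses, through the kinases Perk, Pkr and Hri, feed into the same step.

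The element was looked for in promoters, because the members are described as targets of a shared factor. Windows from 250 bases before to 50 bases after each transcript start (RefSeq, mouse build GRCm38.p6) were searched for TGATGNAA on both strands. All 10 members had a window. Matches were found for 5 of the 10 genes (Atf3, Asns, Trib3, Chac1 and Slc7a11), and of 27025 genes with a window, 4.51% held a match in at least 1 of theirs. The windows of Atf4, Ddit3, Psat1, Phgdh and Cebpb held no match, which says only that these letters are absent from this window. The stretches around the matches read as follows, 5′ to 3′ on the strand of the gene, with each match in capitals.
Atf3: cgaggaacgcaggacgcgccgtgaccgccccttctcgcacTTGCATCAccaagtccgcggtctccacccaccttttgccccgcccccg
Asns: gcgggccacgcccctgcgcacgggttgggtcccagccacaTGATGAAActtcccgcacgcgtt
Chac1: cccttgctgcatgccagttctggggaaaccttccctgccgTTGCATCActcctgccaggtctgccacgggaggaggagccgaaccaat
Slc7a11: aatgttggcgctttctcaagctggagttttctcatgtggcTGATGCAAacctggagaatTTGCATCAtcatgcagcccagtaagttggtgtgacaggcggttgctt
Trib3: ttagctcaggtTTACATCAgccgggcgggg
The Atf3 stretch lies at chr1:191183396-191183483 on the minus strand, that of Asns at chr6:7693210-7693272 on the minus strand, and that of Chac1 at chr2:119351009-119351096 on the plus strand. The Slc7a11 stretch lies at chr3:50443614-50443719 and the Trib3 stretch at chr2:152344028-152344057, both on the minus strand. The Asns match began at base -23 from the start and read in the direction of the gene, whereas those of Atf3 (base -110) and Chac1 (base -193) read on the other strand. Slc7a11 held 2 matches, at bases -66 and -47, one on each strand. The match of Trib3 began at base 15 after the start, within the transcribed part. These matches are descriptions of sequence, and no binding was measured here.

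Levels are given as the processed signal of a probe divided by the 75th percentile of the signals on its array, and log2 changes are differences of group means of the log2 of that level. Signals were raised to a common floor of 0.153 before taking log2 (-2.71 on the log2 scale), and a difference was called at an adjusted p under 0.1 from limma, over 18034 genes. The knockdowns were present at the mRNA level. Kat5 was lower by a log2 change of -1.35 in Tip60 KD (adjusted p = 0.00110) and -1.31 in double KD, while Hdac6 was lower by -2.49 in Hdac6 KD (adjusted p = 0.000309) and by a smaller -1.87 in double KD. Hdac6 mRNA was also lower in Tip60 KD, by -0.44 (adjusted p = 0.00620). Of 10 ESC markers examined, 8 had a value on every array (Nanog and Tdgf1 were outlier spots on Tip60 KD array A), and the summed level of these 8 was 334 to 337 in control KD, 347 to 349 in Tip60 KD, 320 to 323 in Hdac6 KD and 338 to 355 in double KD. Dppa5a alone gave 154 and 159 of this sum in control KD. Called higher were 3, 2 and 3 of the 10 ESC markers in Tip60, Hdac6 and double KD, and called lower 0, 0 and 1. Among them Pou5f1 was higher in all 3 knockdowns, by 1.01, 0.47 and 0.63 (adjusted p = 0.00276, 0.0452 and 0.0170). Sox2 read 20.7 and 17.9 in control KD and 15.9 and 14.4 in double KD. The summed level of 5 trophectoderm markers was 0.636 to 0.788 in control KD, 1.49 to 1.88 in Tip60 KD, 0.929 to 1.26 in Hdac6 KD and 1.34 to 1.54 in double KD, with Krt8 and Eomes carrying the signal and Cdx2, Elf5 and Gata3 near 0 throughout. The summed level of 7 fibroblast markers, of which Postn was not above background on any array, was 2.06 to 2.14 in control KD, 2.94 to 3.28 in Tip60 KD, 3.12 to 3.23 in double KD and 2.27 on both Hdac6 KD arrays. Thy1 made up most of this sum on every array. It read 1.56 (array A) and 1.37 (array B) for control KD, against 2.23 and 1.84 after Tip60 KD. Of the 4 fibroblast markers tested, Thy1 and Col1a1 were called higher after Tip60 KD and double KD, and none after Hdac6 KD. There Col1a1 read 0.132 and 0.119, below its control values of 0.211 and 0.164. Col1a2 was lower than control on array B of every knockdown and higher on array A. The sum of 7 primitive endoderm markers overlapped between all groups (0.572 to 1.103). The part of these shifts in the member values was not tested, and fewer cells with the response and less RNA per cell cannot be told apart in bulk samples. The number of spots well above background ranged from 21896 to 40609 of 43020 between arrays and the median background subtracted from 37.2 to 114, which matters for the dim members Ddit3, Atf3 and Slc7a11.

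Most of the tested members of the Atf4 response were called lower in each of the 3 knockdowns. The members were chosen with earlier results of these data known, so the counts below describe them and are no separate support. Of the 9 members that could be tested, Tip60 KD lowered 7, Hdac6 KD 5 and double KD 7 by this call, and none was called higher. With the replicate letter as a block, the calls were 7, 7 and 8, where 60.8%, 52.9% and 55.5% of all genes were called, and Phgdh in Hdac6 KD was the one called higher. Without the block, over all genes tested, 39.8% were called in Tip60 KD (20.1% lower), 29% in Hdac6 KD (15% lower) and 32.9% in double KD (16.9% lower). The median log2 change of the 9 members was -0.87 in Tip60 KD, where the median of all genes was 0.06. It was -0.59 in Hdac6 KD and -0.57 in double KD, against 0.03 and 0.05 for all genes. A fall of at least 2-fold was called for 4 members in Tip60 KD (Trib3, Chac1, Psat1 and Cebpb), where 2.34% of all genes met this rule, for 2 in Hdac6 KD (Atf4 and Chac1), where 1.2% did, and for 0 in double KD, where 1.14% did. The 3 comparisons share the 2 control KD arrays. Every called member had the same sign of difference on both slides, each of which held 1 array of every group. The calls were made on these same arrays, so that the shared sign is no separate support.

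**Figure D1:**
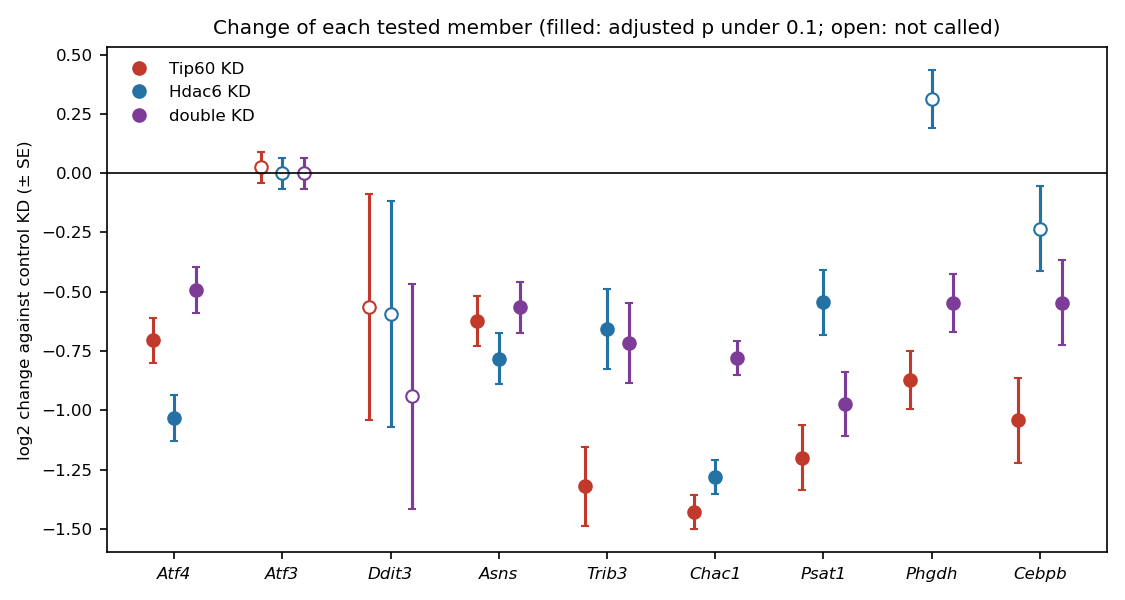
Log2 change of the 9 tested members against control KD in each of the 3 knockdowns (y axis, points with SE; filled points have an adjusted p under 0.1 and open points do not). Called members lie below 0 in all 3 knockdowns, from -0.49 for Atf4 in double KD to -1.43 for Chac1 in Tip60 KD, and Phgdh in Hdac6 KD is the one open point well above 0, at 0.31.

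Atf4 mRNA was highest in control KD. The brighter of its 2 probes, on mm9 chr15:80087902-80087961 and starting at base 1655 of the transcript, read 24.9 (array A) and 22.0 (array B) in control KD, 14.0 and 14.8 after Tip60 KD, 10.9 and 12.0 after Hdac6 KD, and 16.5 and 16.8 in double KD. No 2 groups overlapped, and the order was control, double, Tip60 and Hdac6 KD. The log2 change was -0.71 ± 0.096 (SE, n = 2 arrays per group; limma adjusted p = 0.00382) in Tip60 KD and -1.03 (limma adjusted p = 0.00304) in Hdac6 KD, or 61.3% and 48.9% of control KD. In double KD the change was -0.49 (limma adjusted p = 0.0169), or 71.1% of control KD.

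The dimmer Atf4 probe did not show the fall in Tip60 KD. It lies upstream on the transcript, starting at base 504 (mm9 chr15:80086639-80086698), and read 0.772 (array A) and 0.783 (array B) in control KD, 0.785 and 0.722 after Tip60 KD, 0.580 and 0.484 after Hdac6 KD, and 0.761 and 0.734 in double KD. Here only Hdac6 KD stood apart. Its log2 change was -0.55 (limma adjusted p = 0.0185), against -0.05 (limma adjusted p = 0.797) in Tip60 KD and -0.06 (limma adjusted p = 0.759) in double KD. With the mean of both probes, the change of Atf4 in Tip60 KD was -0.38. The double KD call of the brighter probe was also lost in 3 alternative settings. Its change was -0.20 after normexp background correction and -0.11 in the deposited log2 matrix, whose normalization is not given. With the median of the negative control spots of each array subtracted as background, an alternative chosen after seeing the data, it was -0.19. Thus the lower Atf4 mRNA in Hdac6 KD was shared by both probes, whereas that in Tip60 KD and double KD was read by 1 probe of 2.

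Cebpb encodes a C/EBP factor that dimerises with Atf4. Its probe (mm9 chr2:167515828-167515887) read 2.24 (array A) and 1.96 (array B) in control KD, 1.14 and 0.911 after Tip60 KD, 1.95 and 1.63 after Hdac6 KD, and 1.62 and 1.27 in double KD. Tip60 KD was lowest on both slides, and the Hdac6 KD arrays lay just below the control KD arrays. The log2 change was -1.04 (limma adjusted p = 0.00828) in Tip60 KD, 48.6% of control KD, and -0.55 (limma adjusted p = 0.0789) in double KD. In Hdac6 KD it was -0.23 (95% interval -0.68 to 0.21, limma adjusted p = 0.444), but with the replicate letter as a block it was called (limma adjusted p = 0.0286). The double KD call was lost under 9 of 19 alternative settings.

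Ddit3, also known as CHOP, and Atf3 are bZIP factors induced downstream of Atf4, and both gave dim signals. Ddit3 (mm9 chr10:126732518-126732821) read 0.435 (array A) and 0.502 (array B) in control KD, 0.278 and 0.358 after Tip60 KD, 0.236 and 0.407 after Hdac6 KD, and 0.134 and 0.387 in double KD, the 0.134 being below the floor. All 6 knockdown arrays were below both control KD arrays, but replicates differed widely. The log2 changes of -0.57, -0.59 and -0.94 were not called (limma adjusted p = 0.447, 0.465 and 0.220), with 95% intervals that ran from -1.74 to 0.61 in Tip60 KD and from -2.11 to 0.23 in double KD. With the replicate block, Ddit3 was called lower in double KD (limma adjusted p = 0.0355).

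Atf3 (mm9 chr1:192994547-192994606) read 0.146 (array A) and 0.140 (array B) in control KD, 0.154 and 0.157 after Tip60 KD, 0.0714 and 0.0619 after Hdac6 KD, and 0.138 and 0.130 in double KD. It passed the floor on the 2 Tip60 KD arrays and on no other, so that its fitted changes near 0 carry little. Below the floor, the Hdac6 KD arrays were the lowest. The change of 0 fitted for Hdac6 KD is set by the floor. With the floor lowered to 0.0382, Atf3 was called lower in Hdac6 KD, by -1.11 (limma adjusted p = 0.00407). No other alternative setting called it. In that group, as in control KD, the probe was well above background on array A alone.

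Asns, the asparagine synthetase and a classic readout of Gcn2 and Atf4, fell in every knockdown. Its probe (mm9 chr6:7625171-7625228) read 62.2 (array A) and 61.2 (array B) in control KD, 42.4 and 37.8 after Tip60 KD, 37.2 and 34.6 after Hdac6 KD, and 44.9 and 38.7 in double KD. The control KD arrays stood clear of all others, while the Tip60 KD and double KD arrays overlapped. The log2 changes were -0.62 (limma adjusted p = 0.00825) in Tip60 KD, -0.78 (limma adjusted p = 0.00742) in Hdac6 KD and -0.57 (limma adjusted p = 0.0155) in double KD, or 64.9%, 58.1% and 67.5% of control KD.

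Psat1 and Phgdh catalyse successive steps of serine synthesis from a glycolytic intermediate, and they parted in Hdac6 KD. The brighter Psat1 probe (mm9 chr19:15979622-15979681) read 26.1 (array A) and 26.0 (array B) in control KD, 12.4 and 10.4 after Tip60 KD, 19.3 and 16.6 after Hdac6 KD, and 14.4 and 12.2 in double KD. The Tip60 KD arrays overlapped those of double KD, and Hdac6 KD lay between them and control KD. The log2 changes were -1.20 (limma adjusted p = 0.00227), -0.55 (limma adjusted p = 0.0398) and -0.97 (limma adjusted p = 0.00637) in Tip60, Hdac6 and double KD. The second probe, which starts nearer to the 5′ end, at base 750 of the transcript, changed by -0.83, -0.60 and -1.17 and was called in all 3.

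The brighter Phgdh probe (mm9 chr3:98117215-98117274) read 8.52 (array A) and 8.32 (array B) in control KD, 4.07 and 5.19 after Tip60 KD, 10.5 on both Hdac6 KD arrays, and 5.83 and 5.71 in double KD. Hdac6 KD was above control KD on both slides and the other knockdowns were below it. The log2 change was -0.87 (limma adjusted p = 0.00415) in Tip60 KD and -0.55 (limma adjusted p = 0.0258) in double KD. The increase in Hdac6 KD, 0.31 (95% interval 0.01 to 0.61), was not called with the brighter probe (limma adjusted p = 0.134), was called with the replicate block (limma adjusted p = 0.0674) and was called for the second probe, at 0.52 (limma adjusted p = 0.00936). That probe overlaps no base of the first but lies next to it on the transcript, and it changed by -0.50 in Tip60 KD and -0.38 in double KD.

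**Figure D2:**
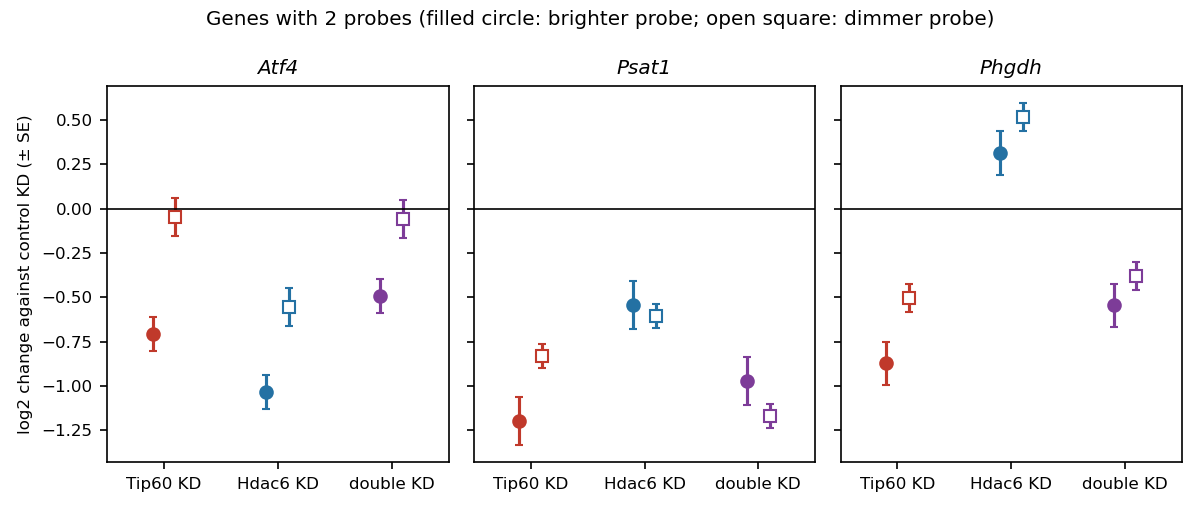
Log2 change against control KD (y axis, with SE) for the 3 members with 2 probes, the brighter probe as a filled circle and the dimmer as an open square. The probes of Psat1 and of Phgdh fall on the same side of 0 in each knockdown, while the dimmer Atf4 probe lies near 0 in Tip60 KD (-0.05) and double KD (-0.06).

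Slc7a11 encodes the cystine and glutamate exchanger that supplies cystine for glutathione. Its probe (mm9 chr3:50169700-50169759) read between -0.018 and 0.0680 on the 8 arrays, below the floor on all of them and well above background on 3. It was the member that could not be tested, and no direction is given for it.

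Trib3 is a pseudokinase that Atf4 and Ddit3 induce and that restrains them in turn. Its probe (mm9 chr2:152163161-152163220) read 6.56 (array A) and 5.92 (array B) in control KD, 2.77 and 2.25 after Tip60 KD, 4.26 and 3.66 after Hdac6 KD, and 4.27 and 3.37 in double KD. Tip60 KD was lowest without overlap, and the Hdac6 KD and double KD arrays were mixed. The log2 change was -1.32 (limma adjusted p = 0.00314) in Tip60 KD, 40.0% of control KD, -0.66 (limma adjusted p = 0.0431) in Hdac6 KD and -0.72 (limma adjusted p = 0.0301) in double KD.

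Chac1 encodes an enzyme that breaks down glutathione and is among the late targets of the pathway. Its probe read 5.39 (array A) and 5.70 (array B) in control KD, 2.10 and 2.02 after Tip60 KD, 2.25 and 2.31 after Hdac6 KD, and 3.26 and 3.20 in double KD (mm9 chr2:119179990-119180049). No 2 groups overlapped, with double KD between control KD and the single knockdowns. The log2 change was -1.43 ± 0.073 (SE, n = 2 arrays per group; limma adjusted p = 0.000521) in Tip60 KD, -1.28 (limma adjusted p = 0.00151) in Hdac6 KD and -0.78 (limma adjusted p = 0.00231) in double KD, or 37.1%, 41.1% and 58.3% of control KD. In Tip60 KD, 0.538% of all genes had a lower change than Chac1.

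**Figure D3:**
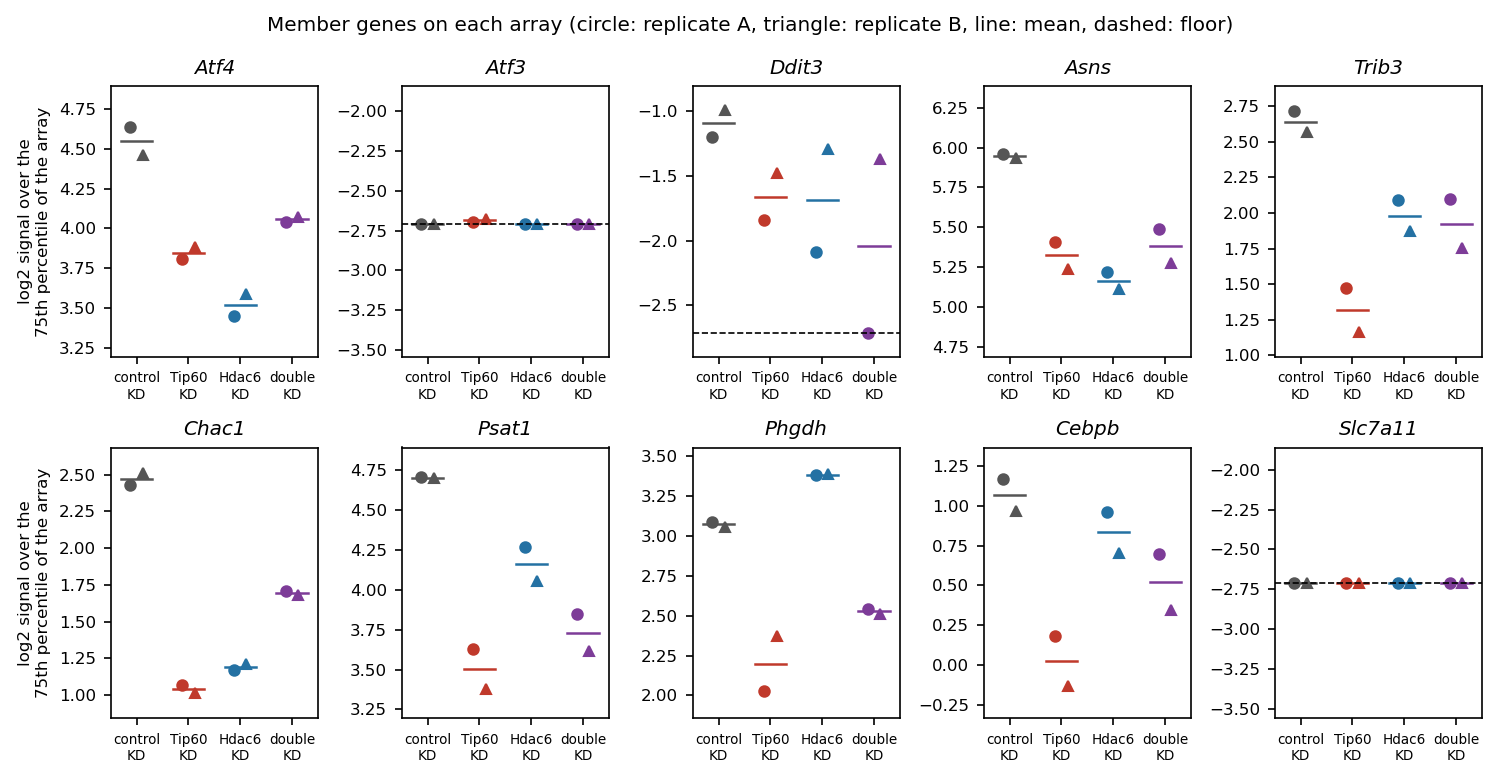
Level of the 10 members on each of the 8 arrays (y axis, log2 of the signal over the 75th percentile of the array, with its own range in each panel; circles are replicate A, triangles replicate B, lines are group means, and the dashed line is the floor). Control KD stands above the 3 knockdowns for Atf4, Asns, Trib3, Chac1 and Psat1, Hdac6 KD is uppermost for Phgdh, and Atf3 and Slc7a11 lie at or next to the floor.

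With any 1 array left out, fewer of all genes were called in Hdac6 KD and in double KD than with 8 arrays. Without control KD array A, control KD array B or Hdac6 KD array B, 3 of the 5 calls in Hdac6 KD were made, and those of Trib3 and Psat1 were lost, where 18.1%, 17.6% and 14.8% of all genes were called. The change of Trib3 in these 3 fits was -0.58, -0.73 and -0.55, and that of Psat1 -0.54, -0.55 and -0.44. The double KD calls of Trib3, Phgdh and Cebpb were lost without control KD array A, and likewise without double KD array B. Over all alternative settings their changes ran from -0.89 to -0.54 for Trib3, -0.56 to -0.46 for Phgdh and -0.72 to -0.37 for Cebpb. In Tip60 KD all 7 calls were made in each of the 19 alternative settings run for single genes.

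Tip60 KD and Hdac6 KD were then compared directly. Of the 9 members, 5 differed, where 23.5% of all genes did. Trib3 (-0.66, limma adjusted p = 0.0496), Psat1 (-0.65, limma adjusted p = 0.0275), Cebpb (-0.81, limma adjusted p = 0.0334) and Phgdh (-1.19, limma adjusted p = 0.00445) were lower in Tip60 KD, and Atf4 was higher there (0.33, limma adjusted p = 0.0745). Phgdh thus stood at 43.9% of its Hdac6 KD level. The differences of Asns (0.16, 95% interval -0.11 to 0.42) and Chac1 (-0.15, 95% interval -0.33 to 0.03) were not called. The count was 1 when Tip60 KD array B or Hdac6 KD array A was left out, and 3 when Hdac6 KD array B was, where 12.9%, 10.8% and 11.4% of all genes were called.

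Double KD was next set against each single knockdown, to ask whether loss of both factors changed the response beyond loss of 1. Against Tip60 KD, 1 member was called, Chac1, which was higher in double KD by 0.65 (limma adjusted p = 0.0473), where 3.7% of all genes were called (1.14% higher). The difference was 0.64 and 0.66 on the 2 slides. With 1 array left out, 0 to 13 of all genes were called in this comparison and Chac1 was not among them, which says nothing about Chac1 itself. With the replicate block, where 26.3% of all genes were called, 3 members were called higher, also Trib3 (0.60, limma adjusted p = 0.0107) and Cebpb (0.50, limma adjusted p = 0.0124). The brighter probe of Psat1 was higher in double KD by 0.23 and the dimmer was lower by -0.34 (limma adjusted p = 0.0823), so Psat1 has no direction here.

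Against Hdac6 KD, 3 members were called, where 10.1% of all genes were. Atf4 (0.54, limma adjusted p = 0.0386) and Chac1 (0.50, limma adjusted p = 0.0232) were higher in double KD, and Phgdh was lower (-0.86, limma adjusted p = 0.0228). Without either array of Hdac6 KD or of double KD, 155 to 364 of all genes were called and none of the 3 members was. With the replicate block 6 members were called, where 29.4% of all genes were, with Asns higher (0.22, limma adjusted p = 0.0726) and Psat1 (-0.43, limma adjusted p = 0.0181) and Cebpb (-0.31, limma adjusted p = 0.0214) lower. Both probes of Atf4 and of Phgdh gave the same direction in this comparison, with 0.50 for the dimmer Atf4 probe and -0.90 for the dimmer Phgdh probe.

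The change in double KD was also compared with the sum of the single changes, on the log2 scale. It fell short of the sum for 5 of 9 members, where 22.1% of all genes departed from the sum and 11.2% did so upward. For Chac1 the sum was -2.71 and the measured change -0.78, a difference of 1.93 ± 0.103 (SE, n = 2 arrays per group; limma adjusted p = 0.00499). Atf4 had a sum of -1.74 against -0.49 (difference 1.24, limma adjusted p = 0.00900), and Trib3 a sum of -1.98 against -0.72 (difference 1.26, limma adjusted p = 0.0251). Asns (difference 0.84) and Psat1 (difference 0.77) showed the same, and Cebpb (difference 0.73, limma adjusted p = 0.119) was called with the replicate block (limma adjusted p = 0.00319), where 47.1% of all genes were called. For Phgdh, whose single changes had opposite signs, the sum of -0.56 and the measured -0.55 nearly coincided, although its dimmer probe gave a difference of -0.39 (limma adjusted p = 0.0681). The dimmer probes of Atf4 (0.54, limma adjusted p = 0.0661) and Psat1 (0.27, limma adjusted p = 0.128) gave smaller differences than the brighter ones. The control KD arrays enter all 3 changes, and Hdac6 mRNA was less reduced in double KD than in Hdac6 KD (log2 difference 0.62, limma adjusted p = 0.0146). The part of this in the result was not tested.

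**Figure D4:**
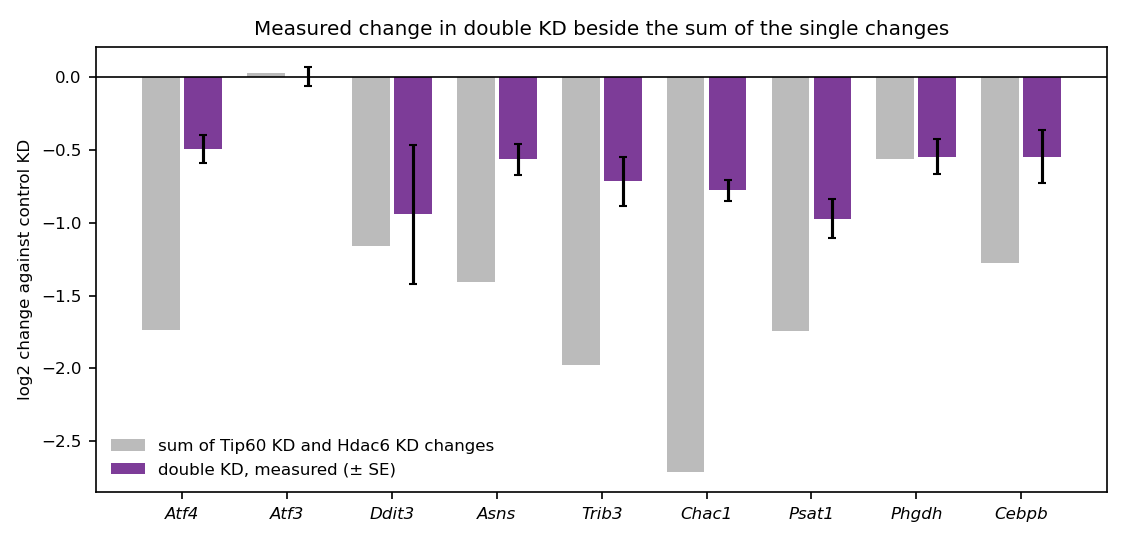
Measured log2 change in double KD (purple bars, with SE) beside the sum of the Tip60 KD and Hdac6 KD changes (grey bars) for the 9 tested members. The purple bar is much shorter than the grey one for Atf4, Asns, Trib3, Chac1, Psat1 and Cebpb, whereas both bars of Phgdh end near -0.55. The difference of Cebpb was not called.

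Other genes of the pathway were described through lists. The lists were chosen with earlier results of these data known, so their counts describe these genes and are no separate support. Atf5, Cebpg and Atf6 are repeated between lists. Beside the list counts, 39.8%, 29% and 32.9% of all genes tested were called in Tip60, Hdac6 and double KD. The shares called lower were 20.1%, 15% and 16.9%. Of 16 other targets of Atf4, 15 were tested, and 10, 10 and 11 of them were called lower in Tip60, Hdac6 and double KD and none higher. The median log2 changes were -1.12, -1.10 and -0.87. Under 19 alternatives, 9 to 13 were called lower in Tip60 KD. Ddit4, an inhibitor of mTORC1 signalling, changed by -2.14, -1.58 and -1.68 in Tip60, Hdac6 and double KD, and Gdf15, a secreted stress cytokine, by -1.95, -1.51 and -1.67. The death receptor gene Tnfrsf10b changed by -1.89, -0.94 and -1.10, Nupr1 by -1.59, -1.16 and -1.62, and the growth factor gene Vegfa by -1.52, -1.25 and -1.41. Vldlr changed by -1.21 in Tip60 KD and Herpud1 by -1.24 in Hdac6 KD. Ndrg1 was called lower in Hdac6 KD alone (-1.13), with 0.03 in Tip60 KD and -0.23 in double KD. Several of these genes also belong to other responses: Ddit4, Gdf15 and Tnfrsf10b are known targets of p53, and Vegfa, Ddit4 and Ndrg1 are induced by low oxygen.

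Among 13 enzymes of amino acid and one-carbon metabolism, the calls were 7 lower after Tip60 KD, 4 lower after Hdac6 KD and 7 lower after double KD, with none higher. In Hdac6 KD the fit lacking array A of control KD called 2, and that lacking array B of Hdac6 KD called 1. Psph, which completes serine synthesis after Phgdh and Psat1, changed by -1.06, -0.57 and -0.73. The proline synthesis genes Pycr1 (-0.75, -0.72 and -1.11) and Aldh18a1 (-0.51, -0.40 and -0.75) and the transsulfuration gene Cth (-0.73, -0.57 and -0.62) fell in all 3 knockdowns. Cbs, which acts before Cth, was called lower in Tip60 KD (-0.52) and differed by 0.11 in Hdac6 KD, where it was not called. Of the mitochondrial one-carbon genes, Mthfd1l was called lower in Tip60 KD (-0.45), while Shmt2 (0.03) and Mthfd2 (-0.35) were not.

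The 11 amino acid transporters tested were mixed, with 3 called higher and 5 lower in Tip60 KD and 2 each way in both Hdac6 KD and double KD. With the negative control background, 1 was called higher and 5 lower in Tip60 KD. In the deposited log2 matrix, 2 were called higher and 0 lower in Hdac6 KD. The calls in both knockdowns also moved with 1 array left out. The cationic amino acid carrier Slc7a3 was higher in each knockdown (0.71, 0.78 and 0.84). The glycine carrier Slc6a9 (-0.87), the neutral amino acid carriers Slc1a4 (-0.80) and Slc38a1 (-0.61), and Slc7a1 (-0.62) were lower in Tip60 KD. Slc1a5, a glutamine carrier, was lower in each (-0.48, -0.40 and -0.60). Slc38a2, another neutral amino acid carrier, was higher in each (0.31, 0.42 and 0.55). In Hdac6 KD, Slc3a2, the shared heavy chain of several carriers, was lower (-0.45). Slc7a5, a leucine carrier that pairs with Slc3a2, differed by 0.02, 0.00 and 0.06.

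Upstream of Atf4, 2 of 11 genes for eIF2 kinases, phosphatases and their partners were called higher and 4 lower after Tip60 KD, with 2 and 2 for Hdac6 KD and 2 and 3 for double KD. Eif2ak4, which encodes Gcn2, changed by -0.61 in Tip60 KD (limma adjusted p = 0.00758) and -0.43 in double KD, and by -0.24 (limma adjusted p = 0.167) in Hdac6 KD. Impact, whose product inhibits Gcn2, and Gcn1l1, whose product activates it, also fell in Tip60 KD (-0.55 and -0.27). Eif2ak2, the gene of the double-stranded RNA kinase Pkr, was higher in all 3 knockdowns, and since both control KD arrays lay at the floor its differences of 0.39, 0.72 and 0.53 are bounds. Eif2b5, a subunit of the eIF2 exchange factor, was higher in all 3 as well (0.57, 0.26 and 0.24). The adaptor gene Nck1 was lower in all 3 (-0.36, -0.49 and -0.44). In Hdac6 KD, Eif2ak3, the gene of Perk, was lower (-0.60, limma adjusted p = 0.0723).

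The branch of the endoplasmic reticulum stress response that runs through Atf6 and Xbp1 did not follow the members. Of 19 genes, 8 were called higher and 2 lower in Tip60 KD, 2 higher and 3 lower in Hdac6 KD, and 6 higher and 2 lower in double KD, with median changes of 0.25, 0.01 and 0.15. In Hdac6 KD, 1 gene was called lower without control KD array A, Hdac6 KD array A or Hdac6 KD array B. In Tip60 KD, 4 were called higher without control KD array B and 5 without Tip60 KD array A. Ern1 (0.54, a bound, as both control KD arrays lay at the floor), Creld2 (0.54), Sel1l (0.52), Pdia4 (0.49) and Manf (0.48) were higher in Tip60 KD, and Hyou1 was higher in all 3 (0.44, 0.45 and 0.83). Edem1, which targets misfolded proteins for disposal, was lower in all 3 (-0.55, -0.60 and -0.73). In Hdac6 KD, Pdia6 (-0.43) and Sdf2l1 (-0.25) were lower and Dnajc3 (0.24) was higher. The main chaperone gene of the branch, Hspa5, differed by 0.30, -0.14 and 0.19 and was not called. With the normexp background, 6 of the 19 genes were called higher in Tip60 KD.

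Of the 20 bZIP genes listed as partners or relatives of Atf4, 13 were tested, and 7, 3 and 7 were called lower in Tip60, Hdac6 and double KD. In the deposited log2 matrix, 3 were called lower in double KD, where 24.3% of all genes were called. The count in double KD also fell without control KD array A or either double KD array. Atf5, a close relative of Atf4, changed by -1.12, -1.10 and -1.02. Nfe2l2, the regulator of the oxidative stress response, was lower in Tip60 KD (-0.69) and double KD (-0.54), and Cebpd (-0.89), Atf2 (-0.59) and Atf1 (-0.50) were lower in Tip60 KD. Fos lay at the floor on all 6 knockdown arrays, so that its change of -1.26 in each comparison gives only a bound. Jund was higher in Hdac6 KD (0.55), where Crem was lower (-0.79), and Nfe2l1 was higher in double KD (0.78). No other gene of the list was called higher. For Cebpg, the usual partner of Atf4, the 2 control KD arrays stood far apart (-1.46 on array A and 0.16 on array B, in log2 level). Its changes of -1.16, -1.14 and -1.50 became -0.35, -0.33 and -0.68 without control KD array B, so that its size of change rests on that array.

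**Figure D5:**
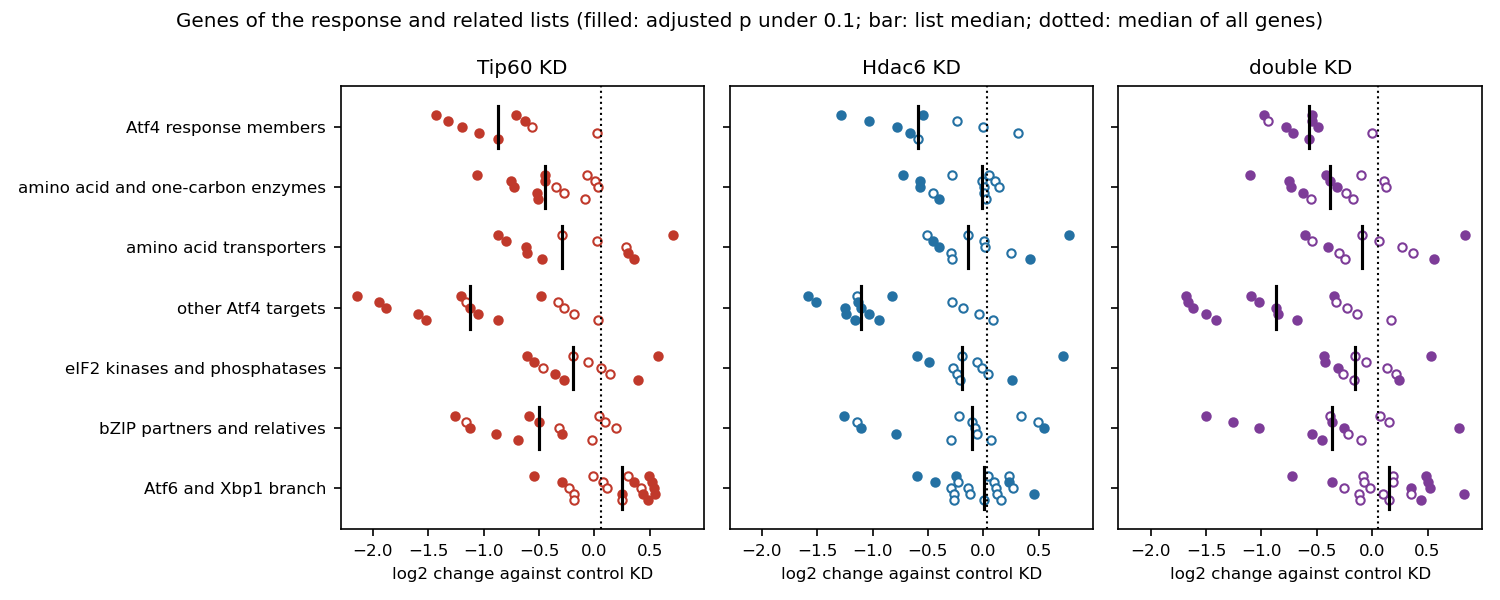
Log2 change against control KD (x axis, same scale in the 3 panels) of each tested gene in the 10-gene set and in 6 lists of the pathway, with filled points for an adjusted p under 0.1, black bars for list medians and the dotted line for the median of all genes. The other Atf4 targets lie furthest to the left in each panel, and the Atf6 and Xbp1 branch lies around or to the right of the dotted line in Tip60 KD and double KD.

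Over the 8 arrays, the genes whose log2 levels ran closest to Atf4 among 14072 genes above the floor on all arrays were Dapk2 (Pearson r 0.99), Cd81, Tmem194, Adc and Gm6578, and those closest to Asns were Tuft1 (r above 0.99), Upf2, Spty2d1, 4930522L14Rik and BC055111. Among the members, Asns (r 0.91) and Chac1 (r 0.90) ranked 251 and 287 by likeness to Atf4, while Trib3 had an r of 0.61 and Phgdh of -0.07. These points are 8 arrays in 4 groups of 2, so that each r largely restates the group means.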

How the data were processed

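Total RNA of 8 cultures was amplified to Cy3-labelled cRNA by the authors and hybridised to 1-colour Agilent mouse arrays. Per the file headers, the deposited scanner files hold fluorescence intensity from Feature Extraction 10.7.1.1, with a processed signal that is background-subtracted, spatially detrended and not scaled between arrays. A deposited matrix of log2 values ranked the probes as the raw signals did. Their normalization is not given in the sources used here. Probe positions are on mm9.

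Control spots were left out, outlier spots set to missing, and spots of a probe averaged. Signals were divided by the 75th percentile of the array, raised to the floor (0.153, the highest over arrays of the lowest signal well above background) and converted to log2. Probes that passed both the floor and the background flag of the software on at least 2 arrays were kept, and the brightest represented its gene, which left 18034 genes and 9 of the 10 members. The 4 groups were fitted together with limma 3.58.1 in R 4.3.3 (lmFit and eBayes, 2-sided, Benjamini-Hochberg over all genes, 4 residual degrees of freedom, no block), and the number of arrays limits the precision. The fit was run on simulated data with noise drawn separately for each array. That simulation held no pairing by replicate letter, so it cannot show how the fit behaves with paired arrays. Motifs were searched in RefSeq promoters of GRCm38.p6, a build other than that of the probes, and figures were drawn with matplotlib 3.10.9.

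Letter, slide and scan coincide, with 1 array of every group on each slide, and a group had the same position on both slides. Replicate letters paired the arrays: deviations correlated in all 6 pairs of groups (r 0.652 to 0.788), and a fit with the letter as a block was also made. Members and lists were chosen with earlier results of these data known. Named list genes are the targeted genes and up to 6 called genes with the largest change per list in Tip60 KD or Hdac6 KD. Some others were named after their values were seen (Hspa5, Shmt2, Mthfd2, Slc7a5, Nfe2l1 and Cebpg).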

Additional observations from a re-analysis of the deposited data

Results flagged for a closer look

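For 5 members the change in double KD differed from the sum of the Tip60 KD and Hdac6 KD changes, by the test of that difference itself. The difference on the log2 scale was 1.93 for Chac1, 1.26 for Trib3, 1.24 for Atf4, 0.84 for Asns and 0.77 for Psat1, each in the direction of a smaller fall than the sum, with limma adjusted p-values between 0.00499 and 0.0515. Over all genes tested, 22.1% departed from the sum and 11.2% did so upward. With the replicate block, Cebpb joined the 5 members (limma adjusted p = 0.00319), where 47.1% of all genes were called. All differences had the same sign on both slides, whose arrays also gave the calls. The dimmer probes of Atf4 (0.54) and Psat1 (0.27, not called, limma adjusted p = 0.128) gave smaller differences.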

How the results depend on the processing

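Of 510 values of single genes under alternative settings, 477 kept their side of the threshold without turning direction, 22 lost the call and 9 gained it. The other 2 turned direction, both of them Atf3 in Tip60 KD, which was not called. Its log2 change was -0.045 in the deposited log2 matrix and -0.054 with the median of the negative control spots as background. Atf3 had a main change of 0 in Hdac6 KD and double KD, so no turn could be counted there. With the replicate block, 7, 7 and 8 members were called in Tip60, Hdac6 and double KD, 3 in double KD against Tip60 KD, 6 in double KD against Hdac6 KD, 5 in Tip60 KD against Hdac6 KD and 6 for the departure from the sum. The block called 60.8%, 52.9%, 55.5%, 26.3%, 29.4%, 41.5% and 47.1% of all genes in these 7 comparisons.

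With a 2-fold minimum, 4, 2 and 0 members were called in Tip60, Hdac6 and double KD, 0 in double KD against either single knockdown, 1 in Tip60 KD against Hdac6 KD and 3 for the departure from the sum. In double KD against Tip60 KD, the count was 0 with normexp and with the negative control background (1 of all genes called in each), the deposited log2 matrix (111 of all genes), only the arrays compared (0 of all genes) and without any 1 array (lowest 0, highest 0, with 0 to 13 of all genes), so that these counts say little about the members, and 2 after quantile normalisation (717 of all genes). With only the arrays compared it was 0 in double KD against Hdac6 KD (0 of all genes). In Tip60 KD against Hdac6 KD it was 2 with only the arrays compared (13.3% of all genes) and 3 with the negative control background (18.5%). Leaving out 1 array gave 7 members in Tip60 KD, 3 to 6 in Hdac6 KD, 4 to 7 in double KD, 0 to 3 in double KD against Hdac6 KD, 1 to 5 in Tip60 KD against Hdac6 KD, and 4 to 5 for the departure from the sum. With 1 array left out, the share of all genes called was also lower in each of these comparisons. The causes were not tested. Signal over background limits Ddit3, Atf3 and Slc7a11, and 2 arrays per group limit every call.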
